A study of Mus musculus with 6 samples.

Results

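FXR peaks lying in intergenic sequence within 20 kb of a transcription start site (TSS) were examined in mouse liver with and without hepatocyte BCL6. A member was any row of either peak list that the authors annotated as intergenic and placed at most 20000 bp from the nearest TSS. The WT list held 2943 such peaks of 20040 (14.7%, 95% Wilson interval 14.2 to 15.2%), and the LKO list held 1739 of 12495 (13.9%, 13.3 to 14.5%). They made up 41.6% of the intergenic WT peaks and 40.6% of the intergenic LKO peaks. Upstream peaks outnumbered downstream peaks in both lists, with 2418 upstream and 525 downstream in WT, and 1400 and 339 in LKO. The sides are reported apart.

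The livers came from male C57BL/6 mice, and each genotype gave 2 libraries of FXR ChIP-seq and 1 library of input chromatin. The control mice, Bcl6 fl/fl, are called WT here but carry floxed Bcl6 alleles. The LKO mice, Alb-cre, Bcl6 fl/fl, carry the same alleles and an albumin promoter driving Cre, so that deletion is directed to hepatocytes and other liver cells keep Bcl6. The study's methods say only in general that animals were fed freely or fasted for some hours, and do not say which applied to these livers. Their age was not given in the sources used here, and the loss of Bcl6 was not measured in these libraries.

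FXR is a nuclear receptor that is activated by bile acids. It binds DNA mostly as a heterodimer with RXR, and its preferred element is an inverted repeat of the hexamer AGGTCA with a single base between the copies (IR1). In liver it represses bile acid synthesis, in part by inducing the corepressor SHP, and it promotes bile acid export. BCL6 is a zinc finger repressor whose DNA element resembles that of STAT5. Binding outside promoters and gene bodies, as described here, is a usual place for enhancers, and the nearest TSS need not belong to the gene that such a site acts on.

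The sequences of 8 strong matched members are printed as examples of strong sites with and without the FXR element. The rule of choice fixed how many carry it, so they do not show how often strong sites do. For each side these are, among WT members matched in LKO, the 3 strongest with an IR1 match and the strongest without one, read from the plus strand of mm10. IR1 was searched as AGGTCANTGACCT allowing 2 mismatches over 12 scored bases, with its centre within 100 bp of the peak centre, and capitals mark the match. Upstream, the peaks lay 5304 bp from the Slc9a8 TSS (chr2:167416301-167416511), 18651 bp from A930001C03Rik (chr19:4420567-4420777), 17510 bp from Gm12504 (chr4:44104278-44104488) and 3030 bp from Ptgds (chr2:25472674-25472884).
Slc9a8: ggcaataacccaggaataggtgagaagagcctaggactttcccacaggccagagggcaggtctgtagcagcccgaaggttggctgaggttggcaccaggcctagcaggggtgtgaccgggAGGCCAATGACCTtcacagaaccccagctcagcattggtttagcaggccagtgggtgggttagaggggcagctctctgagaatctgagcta
A930001C03Rik: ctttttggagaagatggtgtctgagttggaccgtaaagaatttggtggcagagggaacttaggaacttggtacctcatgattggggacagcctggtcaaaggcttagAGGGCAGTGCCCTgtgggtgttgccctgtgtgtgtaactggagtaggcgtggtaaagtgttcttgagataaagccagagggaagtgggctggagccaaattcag
Gm12504: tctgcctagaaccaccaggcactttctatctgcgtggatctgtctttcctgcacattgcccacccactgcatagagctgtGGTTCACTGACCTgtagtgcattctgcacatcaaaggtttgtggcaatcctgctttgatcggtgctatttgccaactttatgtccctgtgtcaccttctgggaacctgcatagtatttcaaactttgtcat
Ptgds: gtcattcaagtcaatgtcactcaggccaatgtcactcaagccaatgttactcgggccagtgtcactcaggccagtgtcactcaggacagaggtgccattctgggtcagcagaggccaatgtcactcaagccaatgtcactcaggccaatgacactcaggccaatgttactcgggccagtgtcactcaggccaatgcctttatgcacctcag

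Downstream, the peaks lay 4881 bp past the TSS of 0610009L18Rik (chr11:120353454-120353664), 19188 bp past that of Fam72a (chr1:131546986-131547196), 10776 bp past that of Fgb, the fibrinogen beta chain gene (chr3:83038982-83039192), and 10788 bp past that of the odorant receptor gene Olfr523 (chr7:140186787-140186997), which had no match.
0610009L18Rik: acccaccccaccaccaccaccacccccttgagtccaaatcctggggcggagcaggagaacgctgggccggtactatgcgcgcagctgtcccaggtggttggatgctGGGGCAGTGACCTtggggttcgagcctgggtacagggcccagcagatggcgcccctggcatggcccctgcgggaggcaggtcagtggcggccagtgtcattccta
Fam72a: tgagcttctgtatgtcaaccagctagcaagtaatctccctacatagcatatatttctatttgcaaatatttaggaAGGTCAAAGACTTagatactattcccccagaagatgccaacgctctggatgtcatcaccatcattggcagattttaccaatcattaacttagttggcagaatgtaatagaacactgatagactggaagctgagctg
Fgb: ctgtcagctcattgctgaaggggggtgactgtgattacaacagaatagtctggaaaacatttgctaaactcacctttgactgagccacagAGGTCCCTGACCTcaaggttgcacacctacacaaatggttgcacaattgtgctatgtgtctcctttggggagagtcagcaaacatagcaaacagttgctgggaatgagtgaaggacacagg
Olfr523: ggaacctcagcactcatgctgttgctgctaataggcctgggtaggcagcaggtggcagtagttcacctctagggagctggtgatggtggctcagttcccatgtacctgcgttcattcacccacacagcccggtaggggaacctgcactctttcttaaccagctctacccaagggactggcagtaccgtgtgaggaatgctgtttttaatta

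The Slc9a8 and Fgb matches had 1 mismatch and the other 4 had 2. In WT the log2 input values of the A930001C03Rik (2.37) and Slc9a8 (1.95) peaks were above the 95th percentile of input in the list (1.85). The Ptgds peak, the strongest member of all, had no window with fewer than 3 mismatches to IR1. Its sequence was a tandem array in which 67.3% of bases were identical after a shift of 15 bases. It held 13 windows with at most 1 mismatch to AGGTCA, on either strand, and none of them was an exact copy. The median was 4 in the 2943 WT members, and 3 of those members (0.102%) held as many. A tandem array repeats its letters, so the windows are not separate finds, and whether FXR binds them was not tested. The Olfr523 peak came no closer to IR1 than 4 mismatches.

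Levels below are the deposited log2 tags of a peak minus the median over the 9918 matched peak pairs in the same library, called the relative level, so that 0 is the level of a typical shared peak. The 2 tables were normalised separately, and 2 libraries against 2 cannot reach an exact permutation p below 0.333 (two-sided). No test between genotypes was therefore run. The spread given is that of 2 libraries, which the sources used here do not say came from separate mice. Depth was 19022618 tags in WT replicate 1, 2883717 in WT replicate 2, and 21287263 and 22637613 in LKO. WT replicate 2 thus stood apart, and the median upstream member was estimated to hold 9.18 tags in it, against 40.4 in WT replicate 1 and 36.8 and 34.2 in LKO.

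Shares of peaks carry 95% Wilson intervals and differences between shares carry 95% Newcombe intervals, which reflect the number of peaks and leave out differences between mice. Over 14 features, 196 such differences were computed, and the intervals were not adjusted for their number.

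The members crowded towards the TSS on the upstream side only. In WT, 320 upstream peaks lay between 1 and 2 kb from the TSS and 65 between 19 and 20 kb, and the corresponding LKO counts were 188 and 40. The nearest upstream members lay 1002 bp (WT) and 1008 bp (LKO) from the TSS, since closer peaks belong to the promoter class of the annotation. Downstream peaks were few near the TSS, where a gene body usually lies, with 3 WT and 2 LKO peaks between 1 and 2 kb. The median distance was 7404 bp upstream and 11477 bp downstream in WT, and 7462 and 11788 bp in LKO, so the lists had nearly the same layout.

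**Figure D1:**
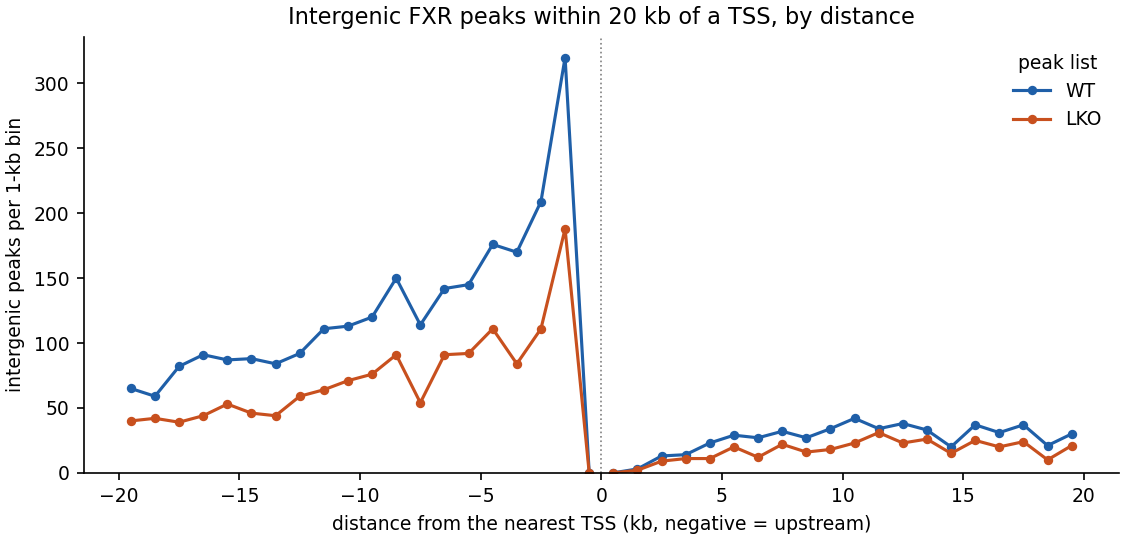
Number of intergenic FXR peaks in each 1-kb bin of distance from the nearest TSS (x axis, kb, negative upstream) in the WT and LKO lists. Upstream counts fell from 320 (WT) and 188 (LKO) in the bin from 1 to 2 kb to 65 and 40 in the farthest bin, and downstream counts were low near the TSS.

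A downstream intergenic peak within 20 kb requires a gene that ends before the peak. The genes assigned to downstream members were accordingly short, with a median length of 5.00 kb in WT and 5.07 kb in LKO, against 21.9 and 21.8 kb for upstream members. Upstream members were nearest to a protein-coding gene in 88.9% of cases in either list, downstream members in 72.6% (WT) and 72.0% (LKO). Genes for noncoding RNA were assigned to 25.3% of downstream WT members and 26.0% of downstream LKO members, and to 10.0% and 10.3% of the upstream ones. Over all peaks the shares were 13.5% (WT) and 13.7% (LKO) for noncoding RNA genes, and 85.5% in either list for protein-coding genes.

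The intergenic label depends on the annotation used. Against the RefSeq genes of GRCm38.p6, whose coordinates are those of mm10, 24.2% of the upstream WT members and 15.6% of the downstream ones were centred inside some gene, a difference of 8.53 points (4.79 to 11.9). In LKO the shares were 23.7 and 13.6%, a difference of 10.1 points (5.55 to 14.1). Against GENCODE they were 20.4 and 16.0% in WT. Of the 577 WT members inside a GENCODE gene 52.3% were in a protein-coding gene and 41.2% in a long noncoding RNA. Only 3.64% of WT members and 3.57% of LKO members were centred in a GENCODE exon.

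The FXR element was found in these peaks far more often than beside them. IR1 was present in 269 of 2418 upstream WT members (11.1%, 9.93 to 12.4%) and in 75 of 525 downstream ones (14.3%, 11.6 to 17.5%), against 1.10 and 0.857% of windows of the same size 2 kb away. In LKO it was present in 202 of 1400 upstream (14.4%, 12.7 to 16.4%) and 62 of 339 downstream (18.3%, 14.5 to 22.8%), against 0.786 and 1.03% of the windows. Over all peaks the shares were 11.9% in WT and 16.3% in LKO, so the members as a whole stood near the background of their list.

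Within the members of the WT list the element was more frequent downstream, with an upstream minus downstream difference of -3.16 points (-6.63 to -0.13). In LKO that difference was -3.86 points (-8.65 to 0.36), an interval that included 0. LKO upstream members also lay below LKO intergenic peaks 20 to 100 kb from a TSS (17.2%), with a difference of -2.80 points (-5.31 to -0.24). The WT share of 12.3% in that class gave a difference whose interval included 0. Both sides exceeded promoters, where IR1 was present in 6.54% of WT and 8.53% of LKO peaks, by 4.58 points upstream in WT (2.97 to 6.20) and 7.74 points downstream (4.80 to 11.1).

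Matches were centred on the peaks. The median distance of the best match from the peak centre was 15 bp on both sides in WT, and 14.5 bp upstream and 19.5 bp downstream in LKO. An IR1 without any mismatch was present in 4 WT members and 3 LKO members, and 1 mismatch in 53 and 44, so most matches (287 and 217) had 2.

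IR1 was more frequent in stronger peaks, with strength taken as the mean log2 value of both ChIP libraries. In the strongest quartile of the WT list, 18.3% of upstream members (15.4 to 21.6%) and 25.2% of downstream members (18.8 to 32.9%) carried it, against 8.51% (6.48 to 11.1%) and 8.06% (4.44 to 14.2%) in the weakest. In LKO the strongest quartile had 25.8% upstream (21.4 to 30.7%) and 29.9% downstream (21.7 to 39.6%), against 7.69% and 13.8% in the weakest. Over all peaks the shares went from 8.42 to 20.2% in WT and from 9.86 to 27.2% in LKO, so the members followed their lists.

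Other motifs were searched in the same windows on both strands, and all are descriptions of letters rather than of bound factors. DR1 (AGGTCANAGGTCA, at most 2 mismatches), the element of several RXR heterodimers and of HNF4A, was present in 14.2% of WT and 13.4% of LKO members, against 3.55 and 3.57% of the windows 2 kb away. ER2 (TGACCTNNAGGTCA, at most 2 mismatches) was present in 6.01 and 6.96%, against 1.70 and 1.75%. The hexamer AGGTCA alone, which the longer elements contain, was present in 42.2% of WT and 43.2% of LKO members, against 13.2 and 13.4%. The liver factor motifs were also above their windows, with the FOXA motif TGTTTAC in 7.17 and 7.65% (windows 2.63 and 3.25%) and the C/EBP motif TTGCNNAA in 18.8 and 17.2% (windows 7.82 and 7.53%). Over all WT and LKO peaks the shares were 13.2 and 12.2% for DR1, 5.44 and 6.12% for ER2, 40.6 and 41.7% for the hexamer, 6.82 and 6.91% for FOXA and 16.9 and 15.6% for C/EBP, near those of the members.

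The shared core of the STAT5 and BCL6 elements, TTCNNNGAA, did not stand out. It was present in 206 of 2943 WT members and 120 of 1739 LKO members (6.90%), against 6.22 and 6.35% of the windows. Apart from IR1 in WT, the only motif whose upstream and downstream shares differed by an interval without 0 was C/EBP in LKO (18.1 against 13.3%, difference 4.87 points, 0.40 to 8.70).

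Repeats were part of the setting. A repeat was the detailed annotation of 25.9% of upstream and 25.5% of downstream WT members, and of 22.4 and 20.6% in LKO. The share over all peaks, promoter and gene classes included, was 17.3% (WT) and 14.9% (LKO), and among intergenic peaks 20 to 100 kb away 23.6 and 19.9%. Upstream members exceeded the latter by 2.37 points in WT (0.05 to 4.71) and 2.49 in LKO (-0.34 to 5.37). LTR elements led on the upstream side, with 10.6% of WT and 8.79% of LKO members, followed by SINEs with 8.73 and 7.57%. Downstream, LTR elements led in WT (10.7 against 8.38%) and SINEs in LKO (8.26 against 6.49%). The shares over all WT and LKO peaks were 5.54 and 4.48% for LTR elements and 6.61 and 5.84% for SINEs. Input was above the 95th percentile of its list at 3.81% of WT and 3.85% of LKO members. By construction this holds for 5% of all peaks, and it held for 3.43 and 4.03% of intergenic peaks 20 to 100 kb away.

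Members of the WT list found an LKO peak about as often as any WT peak did. Of the upstream WT members 1173 (48.5%, 46.5 to 50.5%) and of the downstream ones 271 (51.6%, 47.3 to 55.9%) overlapped an LKO peak by at least 1 bp, against 49.5% of all WT peaks. The sides differed by -3.11 points (-7.80 to 1.61), and the share of either side differed from that of intergenic peaks 20 to 100 kb away (48.2%) by an interval that included 0. Unmatched WT members were seldom near misses, since 7 of 1499 (0.467%) lay within 100 bp of an LKO peak and 8.61% within 1 kb.

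Members of the LKO list were matched more often than more distant intergenic peaks. A WT peak overlapped 83.8% of upstream LKO members (81.8 to 85.6%) and 79.9% of downstream ones (75.4 to 83.9%), against 79.4% of all LKO peaks. Upstream LKO members exceeded LKO intergenic peaks 20 to 100 kb away (77.6%) by 6.20 points (3.46 to 8.90), and downstream ones by 2.36 points (-2.59 to 6.75). Of the 1444 pairs, 1440 paired a member with a member, always on the same side, and the other 4 partners carried another annotation class.

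**Figure D2:**
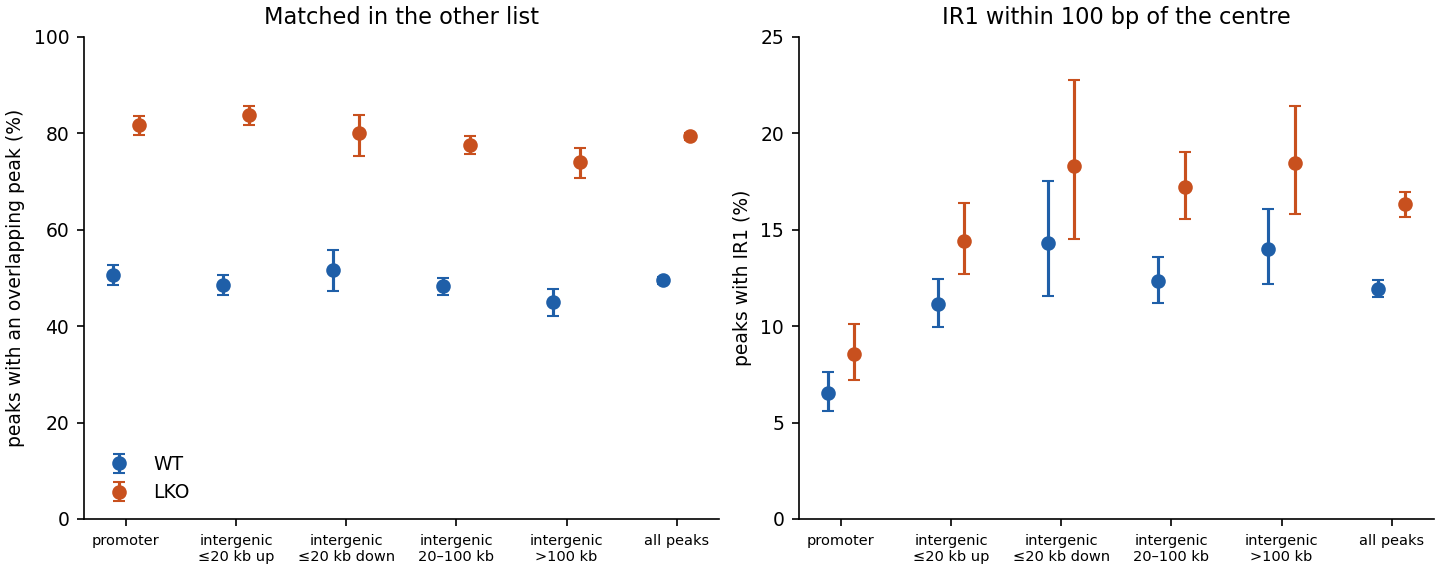
Share of peaks with an overlapping peak in the other list (left, %) and share with IR1 within 100 bp of the centre (right, %), by annotation class, for the WT and LKO lists, with points for shares and bars for 95% Wilson intervals. LKO upstream members were matched at 83.8%, above the 77.6% of the 20 to 100 kb class, and IR1 was more frequent in the intergenic classes than in promoters.

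Matching followed strength on both sides, as it did over all peaks, where it went from 13.9 to 90.3% in WT and from 57.5 to 96.5% in LKO. In the weakest quartile of the WT list 13.1% of upstream members (10.6 to 16.2%) and 14.5% of downstream members (9.38 to 21.8%) were matched, and in the strongest 91.6% (89.1 to 93.6%) and 92.3% (86.8 to 95.7%). In LKO the shares ran from 66.4% (61.3 to 71.1%) to 97.4% (95.1 to 98.6%) upstream and from 49.4% (39.2 to 59.7%) to 97.9% (92.8 to 99.4%) downstream. Just inside and just outside the limit of 20 kb, from 15 to 20 and from 20 to 25 kb, the shares matched were 48.2 and 47.8% upstream in WT and 85.3 and 80.0% in LKO. Downstream they were 50.6 and 40.3% in WT and 79.0 and 76.3% in LKO.

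Median levels of the members were close to those of their whole lists, which stood at -0.67 and -0.62 in the WT libraries and -0.17 and -0.17 in the LKO libraries. Upstream members stood at -0.66 and -0.60 in the 2 WT libraries and at -0.17 and -0.17 in the LKO libraries, on the relative log2 scale. Downstream members stood at -0.59 and -0.51 in WT and at -0.08 and -0.11 in LKO. The upstream medians were therefore below the downstream ones by 0.08 ± 0.01 in WT (difference -0.08) and 0.07 ± 0.02 in LKO (difference -0.07). The ± is the SD over 2 libraries, and the direction was the same in all 4 libraries. Both sides stood above the 20 to 100 kb class in all 4, upstream by 0.06 ± 0.01 in WT and 0.04 in LKO, and downstream by 0.15 ± 0.02 and 0.12 ± 0.03. Both stood below promoters in all 4, with differences of -0.17 ± 0.02 and -0.14 ± 0.02 upstream and -0.09 ± 0.04 and -0.07 ± 0.04 downstream. These SDs compare 2 libraries over the same peaks and leave out the spread among peaks. From the 10th to the 90th percentile, WT relative levels ran from -1.75 to 0.91 upstream and from -1.78 to 1.21 downstream. At or above the median strength of their list stood 50.7% of upstream and 52.4% of downstream WT members, and 50.1 and 51.6% in LKO.

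At the 1444 matched pairs the relative level differed little as a group. The median difference of LKO minus WT was -0.04 upstream (n = 1173) and 0.06 downstream (n = 271), and the 4 pairs of single libraries gave -0.09 to -0.01 and 0.01 to 0.07. On the deposited scale, without centring, the medians were -0.37 and -0.27, so neither direction is independent of the scale. Both LKO values lay above both WT values at 310 upstream (26.4%) and 84 downstream pairs (31.0%), against 29.8% of all matched pairs. Both lay below at 341 (29.1%) and 68 (25.1%), against 25.2% of all pairs. In either direction 55.6% of the member pairs did not overlap, against 55.1% of all pairs, so the count alone does not set the members apart.

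The pairs split by IR1. Upstream pairs with the element (n = 177) had a median difference of 0.23, with 44.6% above in LKO (37.5 to 52.0%) and 22.6% below. Upstream pairs without it (n = 996) had a median of -0.08, with 23.2% above (20.7 to 25.9%) and 30.2% below. The share above was thus 21.4 points higher with IR1 (13.8 to 29.2). Each of the 4 pairs of single libraries gave 0.13 to 0.23 with IR1 and -0.11 to -0.05 without it, so the gap was also present in the pairs that used only the deeper WT replicate 1. On the deposited scale the medians were -0.10 with IR1 and -0.41 without it, so the sign of each depends on centring while the order does not.

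Downstream the split was seen in the share of pairs below. With IR1 (n = 53) the median difference was 0.17, with 37.7% above and 11.3% below, and without it (n = 218) it was 0.01, with 29.4% above and 28.4% below. The share below was 17.1 points lower with IR1 (difference -17.1, -25.9 to -4.56), while the share above differed by 8.38 points (-5.03 to 23.0). Over all matched pairs the share below differed by -9.55 points (-11.5 to -7.44), a value inside the downstream interval.

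The upstream gap was present at low and high levels. In a split chosen after the values were seen, among upstream members below the median level of all pairs (mean of the 4 libraries), 51.9% of pairs with IR1 and 27.0% without it were above in LKO, a difference of 24.97 points (11.1 to 38.4). At or above that level it was 22.4 points (13.3 to 31.7). Downstream the share above differed by 2.68 points (-18.7 to 29.4) below that level, with 14 pairs with IR1, and by 12.99 points (-3.32 to 30.3) at or above it. The contrast was also present at other matched peaks. Matched peaks outside the members gave 44.8% with IR1 and 27.3% without it, a difference of 17.5 points (14.7 to 20.3), and matched promoters gave 20.1 points (10.8 to 29.8). Matched intergenic peaks 20 to 100 kb away gave 14.1 points (7.55 to 20.8).

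**Figure D3:**
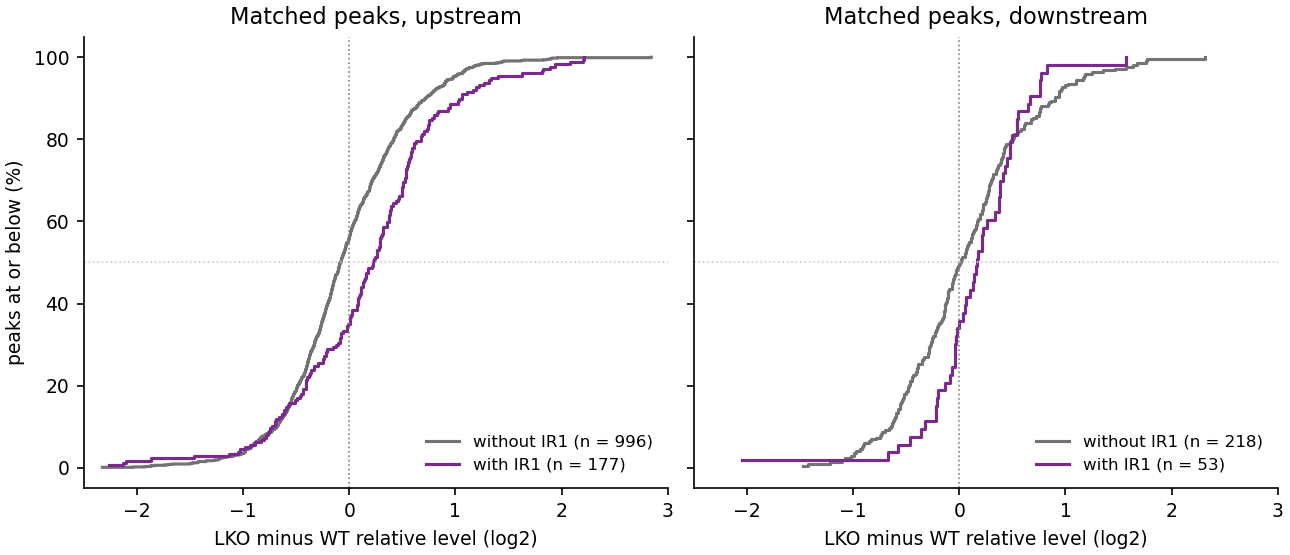
Cumulative share of matched pairs (y axis, %) by the difference of relative level, LKO minus WT (x axis, log2), upstream (left) and downstream (right), for pairs with and without IR1. Upstream, the curve with IR1 (n = 177) lies to the right of the curve without it (n = 996), with medians of 0.23 and -0.08, and downstream the medians were 0.17 and 0.01.

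Genes of bile acid synthesis, transport and feedback were described first among the named loci. Of 27 such genes, 25 had a WT peak of any class and 14 (56.0%) had a member, and 21 had an LKO peak and 11 (52.4%) had a member. Over all genes with a peak, 23.9% in WT and 20.3% in LKO had a member. The share was also higher in the other liver gene lists described below, from 34.3 to 60% in WT and from 26.1 to 54.2% in LKO. It was highest for drug and steroid metabolism in both, so the bile acid genes did not stand apart from other liver genes. The bile acid list is small and was chosen with results known, so these shares are a description. The bile acid genes held 20 WT members, 17 upstream and 3 downstream, of which 12 were matched, and 14 LKO members. IR1 was present in 2 of these WT members and none of the LKO members.

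Of the uptake transporters, Slc10a1, which encodes NTCP, had the strongest member, 7334 bp upstream (chr12:80975934-80976144). It stood at 2.13 and 2.59 in WT and at 1.93 and 2.04 in LKO, a difference of -0.37 with no overlap between genotypes. Slco1b2, another hepatocyte bile acid and anion importer, had its strongest member 13973 bp upstream (chr6:141615440-141615650), at 1.25 and 1.51 in WT and 0.09 and 0.48 in LKO. Its difference of -1.09 was the lowest of the list. Its 2 other WT members, 15275 and 18556 bp upstream, were weaker, at -1.45 ± 0.34 and -0.39 ± 0.33 (SD, n = 2), and had no LKO peak. The related genes Slco1a1 and Slco1a4 had weak WT members without an LKO match, at -1.19 ± 0.88 and -1.63 ± 1.02 (SD, n = 2), and Slco1a4 also had an unmatched LKO member at -1.14 ± 0.13.

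Among the enzymes of synthesis, Cyp7a1, the rate-limiting enzyme of the classical pathway, had 2 matched members. The one 3049 bp upstream stood at -1.07 and -0.47 in WT and at -0.61 and -0.45 in LKO. The one 17371 bp downstream stood at -0.23 and -0.13 in WT and -0.35 and 0.10 in LKO, and at both sites the genotypes overlapped. A further weak member 12674 bp downstream, at -1.65 and -2.05, was in the WT list alone. Cyp8b1, the sterol 12-alpha-hydroxylase that steers synthesis to cholic acid, had 1 member 9135 bp upstream (chr9:121925335-121925545), at 0.07 and 0.25 in WT and -0.72 and -0.61 in LKO, a difference of -0.83 without overlap. Cyp7b1, of the alternative pathway, had a WT member 11125 bp upstream with an IR1 match of 2 mismatches and no LKO peak. It lay in an LTR element and was weak, at -1.17 and -0.53. Of all WT peaks 49.5% had an LKO match, and weak ones had it less often, so its absence from the LKO list is not particular.

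For conjugation, Slc27a5, the bile acid ligase, differed in the other direction. Its member 2566 bp upstream (chr7:13000653-13000863) stood at 0.03 and -0.76 in WT and at 0.61 and 0.50 in LKO, a difference of 0.92, the highest of the list. The member 8471 bp upstream of Sult2a1, a sulfotransferase of bile acids, stood at -1.06 ± 0.08 in WT and -0.92 ± 0.17 in LKO, where the genotypes overlapped.

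Of the exporters, Abcb4, the canalicular phospholipid transporter, had 2 members upstream. The one at 7736 bp (chr5:8885880-8886090) stood at 1.70 and 1.45 in WT and 1.52 and 1.47 in LKO, and the genotypes overlapped there as they did at the weaker one at 16466 bp. Abcc4, a basolateral exporter, had a matched member 8284 bp upstream with a difference of -0.21, and 1 unmatched member in each list. The matched Abcc4 member had a WT input value of 2.28, above the WT 95th percentile of 1.85, and an LKO input value of -0.10. The weaker Abcb4 member likewise had a WT input value of 2.27 and an LKO input value of -0.03. Abcc2, a canalicular exporter of organic anions, had a single weak WT member at -2.00 ± 0.11.

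Of the regulators, Nr0b2, which encodes SHP, had a member 10080 bp downstream at 0.18 and -0.02 in WT and 0.48 and 0.52 in LKO, a difference of 0.42 without overlap. Nr1h4, the gene of FXR itself, had a member 19620 bp upstream in an LTR element, at -0.95 and -0.28 in WT and -0.54 and -1.60 in LKO. The genotypes overlapped there. Over the 12 matched members of the list the median difference was -0.01, with 2 above in LKO, 4 below and 6 overlapping.

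**Figure D4:**
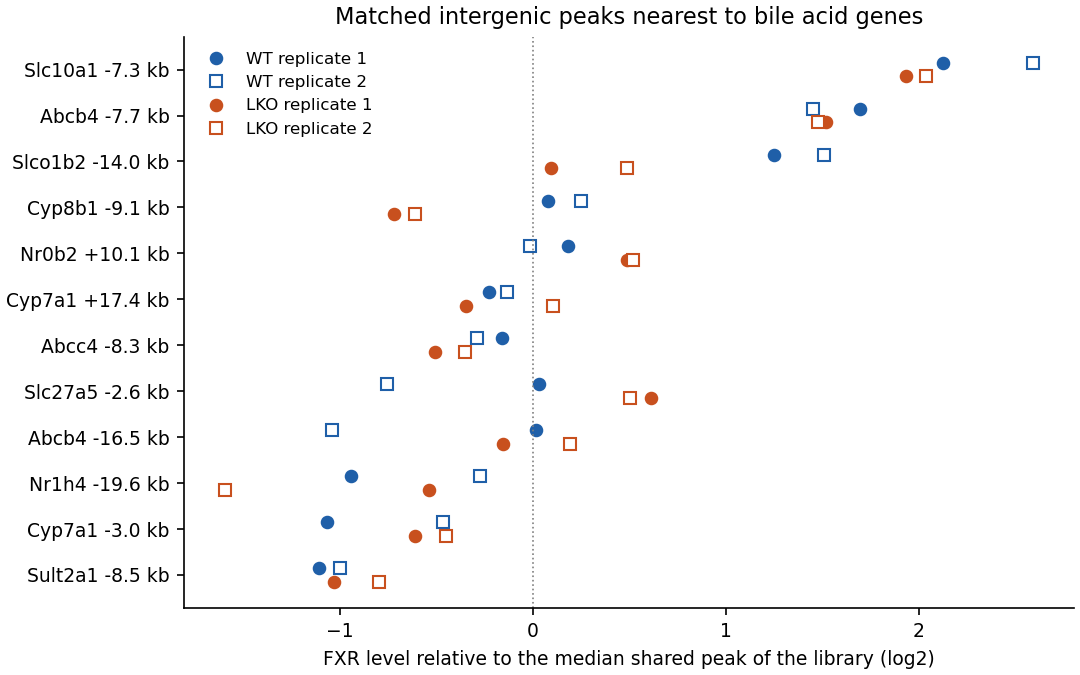
Relative FXR level (x axis, log2, 0 = median shared peak of the library) of the 12 matched intergenic peaks nearest to bile acid genes in the 4 ChIP libraries, with the distance to the TSS beside each gene (kb). Both LKO values lie below both WT values at Slc10a1, Slco1b2, Cyp8b1 and Abcc4, and above them at Nr0b2 and Slc27a5.

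Other liver gene lists were treated the same way, and none was tested. Genes of plasma proteins, coagulation and complement held 53 WT members, of which 26 were matched, with a median difference of -0.07 and 6 pairs above, 6 below and 14 overlapping. Glucose and insulin genes had 19 matched members with a median of -0.19 (2 above, 6 below). Genes of lipoproteins and cholesterol (12 pairs, median -0.23, 2 above, 5 below), of fatty acids and triglycerides (13 pairs, -0.16, 3 above, 6 below) and of drug and steroid metabolism (12 pairs, -0.24, 3 above, 6 below) also had more pairs below than above.

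Lists of regulators had more pairs above than below. Nuclear receptors and corepressors had 7 matched members with a median of 0.24 (3 above, 2 below), hepatocyte transcription factors and clock genes 14 with a median of 0.03 (5 above, 3 below), and growth hormone and STAT5 genes 6 with a median of 0.48 (4 above, 1 below). Against 29.8% above and 25.2% below over all pairs, counts of this size are descriptions only.

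The strongest matched member of each list showed mostly small differences. Thrsp, a lipogenic gene, had one 1334 bp upstream at 2.81 and 3.05 in WT and 2.57 and 2.14 in LKO, the only one of these 8 lists' leaders to stand below without overlap. Socs3, the cytokine signalling inhibitor, 5947 bp downstream and with IR1, stood at 1.89 and 2.06 in WT and 2.40 and 2.30 in LKO. Tbl1xr1, a subunit of the NCoR corepressor complex, 1463 bp upstream and with IR1, stood at 1.53 and 1.44 in WT and 1.91 and 1.70 in LKO. These 2 were above without overlap.

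At the other leaders the genotypes overlapped. Pck1, the gluconeogenic enzyme gene, had a member 6169 bp upstream with a difference of 0.02, Lrp1, a lipoprotein receptor gene, 1089 bp upstream with -0.13, and Cyp3a25, a drug-metabolising P450 gene, 11741 bp upstream with -0.24. The differences at Onecut2 and Fgb were -0.01 and 0.17.

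The strongest matched members of all differed little between genotypes. Upstream these lay near Ptgds (prostaglandin D2 synthase), Gstt2 (a glutathione transferase), Slc9a8 (a sodium-proton exchanger), Klf9 (a Krüppel-like factor) and Cth (cystathionine gamma-lyase). Ptgds stood at 4.26 and 5.18 in WT and at 4.40 and 4.66 in LKO, and Gstt2 at 3.52 and 4.09 and at 3.78 and 3.85. Differences for the 5 ranged from -0.19 at Ptgds to 0.31 at Slc9a8. Only Cth, at 3.21 and 3.45 in WT and 3.46 and 3.47 in LKO, did not overlap. The Klf9 peak had an LKO input value of 3.42, above the LKO 95th percentile of 2.49.

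Downstream the strongest lay near 0610009L18Rik, Olfr523, Fam72a, Fgb and Gpx2, a glutathione peroxidase gene. The 0610009L18Rik peak stood at 3.12 and 3.31 in WT and 3.48 and 3.40 in LKO. The Fam72a peak, at 2.68 and 3.09 in WT and 2.27 and 2.56 in LKO, was the only one of the 5 to stand below without overlap.

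The largest differences were found at peaks that were of middle or low level in one genotype. These peaks were picked for their difference and get no test. Upstream, Asb2, a ubiquitin ligase subunit, had a peak at 6124 bp that stood at -1.14 and -2.95 in WT and at 0.87 and 0.74 in LKO. Cux2, a homeobox gene, had one at 10449 bp that stood at -0.84 and -0.39 in WT and at 1.53 and 1.66 in LKO. The Cux2 peak (chr5:122060195-122060405) carried an IR1 with 1 mismatch, AGGTCAGTGACCC. Downstream, Mir704 and Fam71a were the highest, with differences of 2.32 and 1.77. Mir704 stood at -2.10 and -1.50 in WT and at 0.48 and 0.54 in LKO. Fam71a stood at -1.47 and -2.43 in WT and at -0.02 and -0.34 in LKO. The lowest values of the Asb2 and Fam71a peaks were those of the shallow WT replicate 2, so these differences rest in part on few tags.

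The lowest differences were at Gm4956 upstream, with 2.24 and 2.15 in WT and -0.28 and 0.02 in LKO, and at Scp2, the sterol carrier protein gene, with 0.80 and 1.68 against -1.18 and -0.87. Downstream they were at Nolc1, with 1.16 ± 0.06 against -0.88 ± 0.06, and at Slc25a5, the gene of an ADP/ATP carrier, with a difference of -1.47. Of these 4, Scp2 and Nolc1 carried an IR1 with 2 mismatches, so that the element was present at members that differed in either direction. The Gm4956 peak had a WT input value of 1.88, above the WT 95th percentile of 1.85, and an LKO input value of -0.05.

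Members found in one list only were weaker as a group, as unmatched peaks were in the whole lists. Unmatched WT members had median relative levels of -1.19 and -1.05 upstream, against 0.04 and 0.06 for the matched ones, and unmatched upstream LKO members had -0.72 and -0.67 against -0.04 and -0.02. Over all unmatched peaks the levels were -1.22 and -1.12 in WT and -0.70 and -0.69 in LKO. IR1 was present in 7.39% (6.06 to 8.98%) of unmatched and 15.1% (13.2 to 17.3%) of matched upstream WT members, against 7.27 and 16.7% over all WT peaks. In LKO the upstream shares were 11.01% (7.57 to 15.8%) and 15.1% (13.2 to 17.3%), with overlapping intervals.

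The strongest unmatched members were partly special cases. Downstream in WT the strongest was a peak near Mir101c, 98.1% of it soft-masked as repeat, annotated to a satellite and with an input value of 3.91, above the 95th percentile of 1.85. Upstream, the strongest in each list were 2 neighbouring peaks near Mroh2a. The WT peak (chr1:88224607-88224817) and the LKO peak (chr1:88224401-88224605) were 1 base apart, both had input values above the 95th percentile (2.97 in WT and 3.39 in LKO), and they count as unmatched only by the rule of overlap. Members without such a mark were 1700034H15Rik in WT (1.95 ± 0.23), and Dag1 (1.12 ± 0.42), Efna3 (0.92 ± 0.35) and Cbx8 (0.69) in LKO, the dystroglycan, an ephrin and a Polycomb gene.

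Most genes had a single member. The WT members were assigned to 2159 genes, of which 1600 (74.1%) had 1, 400 had 2 and 159 had 3 or more, and the LKO members to 1396 genes, of which 1121 (80.3%) had 1, 215 had 2 and 60 had 3 or more. Another member lay within 5 kb of 32.7% of WT and 24.2% of LKO members. Among intergenic peaks 20 to 100 kb away the same was true of 33.3 and 22.4%, and 62.1 and 71.4% of their genes had 1 such peak. Of the WT genes with a member, 1763 had no promoter peak in that list, and in LKO 1216. The lists held 2292 (WT) and 1406 (LKO) promoter peaks, against 9025 and 6877 genes with a peak of any class. Most genes with a peak thus had no promoter peak, so these counts do not set the members apart.

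G6pc, the catalytic subunit of glucose-6-phosphatase and a target of insulin and glucagon, had 6 WT members, all upstream, and each was matched. Their distances were 3035, 5209, 6065, 11793, 15818 and 16446 bp (the outermost at chr11:101351165-101351375). At 3035 bp the peak stood at 0.61 and 0.93 in WT and -0.16 and 0.12 in LKO, at 11793 bp at 0.36 and 0.73 against -0.19 and -0.38, and at 16446 bp at 1.09 and 1.41 against 0.62 and 0.74. These 3 were below in LKO without overlap.

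The G6pc peak at 6065 bp was above, at 0.53 and 1.14 in WT and 1.40 and 1.31 in LKO. The remaining 2 overlapped, of which the one at 5209 bp carried the only IR1 of the cluster. LKO had a seventh member 11424 bp downstream at -0.17 ± 0.05. Peaks of the same gene thus differed in direction.

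Trf, which encodes transferrin, had 5 WT members upstream, 4 of them matched. The strongest, 11102 bp upstream (chr9:103241283-103241493) and with the IR1 match AGGCCACTGACCC, stood at 1.92 and 1.86 in WT and 1.90 and 2.14 in LKO. The peak at 9306 bp, also with IR1, was above in LKO, at 0.51 and 1.29 in WT and 1.30 and 1.70 in LKO, and the peak at 18551 bp was below by 0.40 (difference -0.40). The peak at 13617 bp had no LKO partner, although it stood at 0.64 and 0.59 in WT.

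Cebpa, the gene of the hepatocyte factor C/EBP-alpha, had 5 WT members, of which 2 were matched. The one 1404 bp upstream was below in LKO (0.49 and 0.80 in WT, 0.29 and -0.16 in LKO) and the one 11200 bp downstream was above (0.50 and 0.26, 0.73 and 0.67). Tcim had a member 9872 bp upstream with IR1 that stood at -0.75 and -1.39 in WT and 1.19 and 1.06 in LKO, a difference of 2.20. Its strongest member, 10159 bp downstream, stood at 1.74 and 1.97 in WT and 2.17 and 2.05 in LKO.

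**Figure D5:**
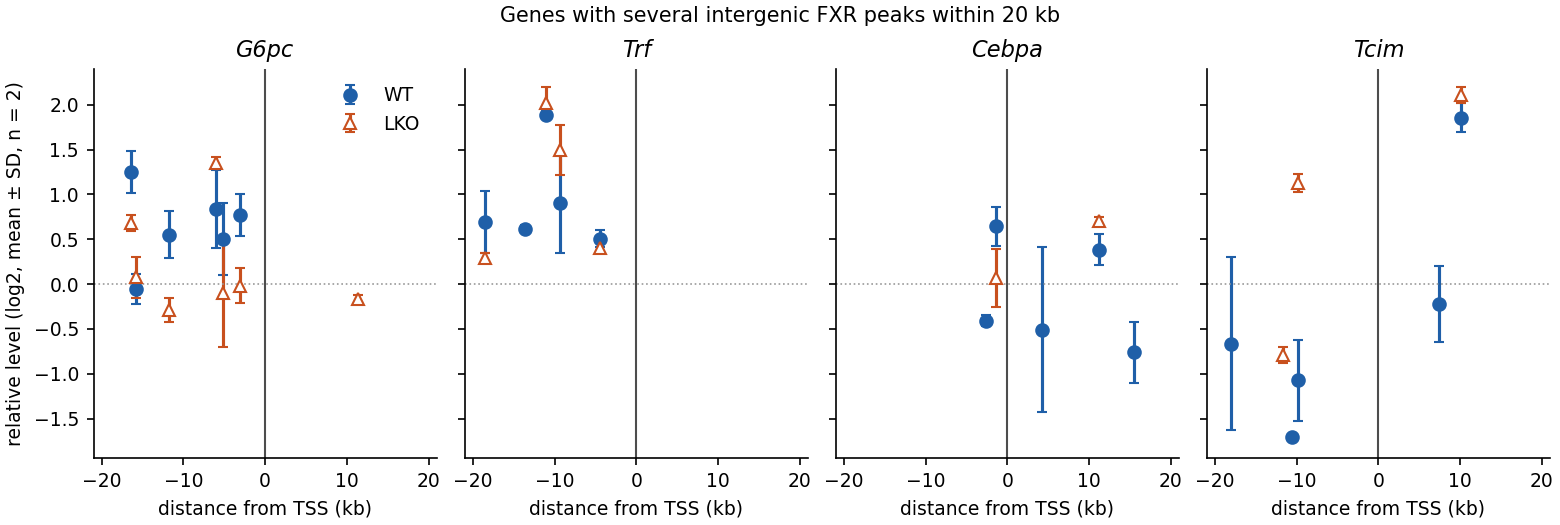
Relative FXR level (y axis, log2, mean ± SD of 2 libraries) against distance from the TSS (x axis, kb, negative upstream) for the intergenic peaks of G6pc, Trf, Cebpa and Tcim in the WT and LKO lists. At G6pc 3 of 6 matched peaks were below in LKO without overlap and 1 was above, and at Tcim the peak 9872 bp upstream was higher in LKO by 2.20.

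Other genes with 5 WT members differed in how many were shared. All 5 were matched at Pim3, a kinase gene, 3 at Slc16a12 and Slc25a33, and 1 at Tgfa, an EGFR ligand. The 4 Tgfa members without a match stood between -1.47 ± 0.03 and -0.44 ± 0.26, and the matched one, 5973 bp upstream, stood at 0.27 and 0.12 in WT and 0.11 and -0.65 in LKO. The most members, 7 in WT and 3 in LKO, were assigned to 4933440J02Rik.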

How the data were processed

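FXR ChIP-seq from mouse liver was read from the 2 peak tables that the authors deposited, 1 per genotype. Per the study's methods, the authors aligned 100 bp single-end reads to mm10 with Bowtie, kept unique alignments and 1 tag per position, and used HOMER. The submitters' processing notes give Bowtie 1.2 and HOMER 4.10. Per the file headers, peaks were called on the replicates of a genotype together against its input and kept by DESeq2 at an FDR of 0.05 and a log2 fold of 1. The values used here are the authors' log2 tags per peak and library, scaled to library totals. The deposited headers call them tag counts, but their range and fractional form are those of regularised log2 values, an inference from the values. The authors' peak score, a signal of pooled tags per 10000000, and their focus ratio, a fraction of well-placed tags, were summarised but entered no comparison. Strength is the mean log2 value of the 2 ChIP libraries of a table. Columns of the authors' own comparisons, which hold fold changes and p-values against input, were not used.

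Members and gene lists were chosen with earlier results of these data known. Peaks were matched by an overlap of at least 1 bp, and libraries were centred on the median of the matched peaks. Named peaks are those of the bile acid list, the strongest matched and unmatched members, the genes with the most members (ties kept, 10 genes, of which 1 is not reported here), the strongest member of each other list, and the largest non-overlapping differences in either direction. Sequence came from GRCm38.p6 and annotation from RefSeq and GENCODE. Overlap and motif searches were tested on simulated data, with 2000 planted cases each and 100% recovered. Sequence was read with pysam 0.24.0, tables were joined with pandas 2.3.3, intervals were computed from their formulas with numpy 2.4.6, and plots were drawn with matplotlib 3.10.9, under Python 3.11.15.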

Additional observations from a re-analysis of the deposited data

How the results depend on the processing

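Of 72 alternatives, 36 stayed within 1.5 times the count, the interval or the library spread of the value reported, and 36 went beyond it. The counts of members upstream and downstream were 1225 and 275 in WT and 701 and 175 in LKO at or above the median strength, 1546 and 202 and 898 and 121 with a limit of 10 kb, and 1094 and 253 in WT when each replicate had to hold an estimated 10 tags or more. At or above the median strength in both lists, 87.6 and 89.1% of LKO members and 56.7% of downstream WT members were matched. IR1 shares were 1.70 and 3.05% in WT and 2.36 and 4.13% in LKO with at most 1 mismatch, and 13.9 and 19.3% and 19.4 and 25.1% at or above the median strength. Mean relative levels were -0.50 and -0.43 in WT and 0.0025 and 0.076 in LKO, so in LKO the sign of the members' level differs between mean and median. The LKO minus WT difference upstream and downstream was -0.37 and -0.27 without centring, -0.11 and -0.0067 with mean centring and -0.16 and -0.054 at stronger WT members. Leaving out each library in turn gave -0.070 to -0.00086 upstream and 0.0014 to 0.10 downstream. The downstream median thus changes sign with the scale and the strength limit. The cause was not tested. No paired analysis was possible because the genotypes were compared without a test, so there was no fit to hold a block. The pairs of equal number, replicate 1 and replicate 2, gave medians of -0.02 and -0.04 upstream and 0.04 and 0.07 downstream.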
